A study of Mus musculus with 8 samples.

Results

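Gluconeogenesis and the insulin-FOXO1 arm that restrains it were followed in mouse liver through 9 genes chosen by name: 4 enzymes (G6pc, Pck1, Fbp1 and Pcx), the glucose 6-phosphate transporter Slc37a4, the transcription factor Foxo1, the insulin receptor substrates Irs1 and Irs2, and Igfbp1, a secreted carrier of insulin-like growth factors. These are 9 of the 52636 genes counted, each found by the Ensembl identifier that the annotation pairs with its symbol, and all 9 had enough counts to be tested. The livers came from 8 wild-type male C57BL/6J mice, 4 per group, sequenced as 1 mRNA library per mouse. At 7 weeks of age each mouse was injected with AAV8, a virus that reaches the liver, carrying GFP (AAV8-GFP, mice 303, 311, 314 and 315) or human AGXT (AAV8-AGXT, mice 308, 309, 316 and 319), both under the TBG promoter, which is active in hepatocytes. From 8 weeks of age both groups ate the same MASH-inducing diet, rich in fat, fructose and cholesterol, for 24 weeks, so that no chow-fed or uninjected liver entered the comparison. The question was how the glucose-producing programme of the liver on this diet differed when hepatocytes carried AGXT, which detoxifies glyoxylate.

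In the fasted state the liver makes glucose from lactate, glycerol and amino acids. Pyruvate carboxylase (Pcx) and cytosolic PEP carboxykinase (Pck1) turn pyruvate into phosphoenolpyruvate, fructose bisphosphatase (Fbp1) opens the last stretch of the route, and the transporter encoded by Slc37a4 carries glucose 6-phosphate into the endoplasmic reticulum, where the catalytic subunit encoded by G6pc releases free glucose. FOXO1 in the nucleus drives transcription of G6pc, Pck1, Igfbp1 and Irs2, and insulin, acting through the receptor, IRS1 or IRS2 and AKT, sends FOXO1 out of the nucleus without necessarily changing its mRNA.

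The promoters of the best studied of these genes, and that of Slc37a4, the member whose difference passed the test, are printed to show the letters that insulin and cAMP are known to act through. They are RefSeq windows of GRCm38.p6 on the plus strand, 250 bases before and 50 after a transcription start, at chr11:101367466-101367765 (G6pc), chr2:173152823-173153122 (Pck1), chr11:7197537-7197836 (Igfbp1) and chr9:44396696-44396995 (Slc37a4). Capitals mark matches on either strand to the insulin response units TGTTTTG and TATTTTG, which FOXO proteins bind, and to ACGTCA, part of the cAMP response element, so that CAAAACA and TGACGT are matches on the opposite strand.
G6pc: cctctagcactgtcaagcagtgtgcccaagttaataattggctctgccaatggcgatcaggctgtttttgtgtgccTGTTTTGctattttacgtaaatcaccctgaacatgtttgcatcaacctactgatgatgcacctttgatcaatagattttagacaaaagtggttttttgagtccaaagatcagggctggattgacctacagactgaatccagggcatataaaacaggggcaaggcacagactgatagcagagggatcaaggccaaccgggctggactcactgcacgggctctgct
Pck1: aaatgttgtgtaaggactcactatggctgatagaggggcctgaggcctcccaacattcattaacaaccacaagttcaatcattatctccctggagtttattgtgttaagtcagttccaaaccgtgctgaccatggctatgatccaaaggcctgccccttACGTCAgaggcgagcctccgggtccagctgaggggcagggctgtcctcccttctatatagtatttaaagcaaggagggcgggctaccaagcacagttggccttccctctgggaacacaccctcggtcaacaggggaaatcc
Igfbp1: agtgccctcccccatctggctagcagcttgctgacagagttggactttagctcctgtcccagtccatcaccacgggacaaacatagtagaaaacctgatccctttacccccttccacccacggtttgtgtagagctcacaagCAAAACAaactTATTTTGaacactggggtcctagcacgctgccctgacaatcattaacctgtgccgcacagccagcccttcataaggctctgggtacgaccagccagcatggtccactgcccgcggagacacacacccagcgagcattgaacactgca
Slc37a4: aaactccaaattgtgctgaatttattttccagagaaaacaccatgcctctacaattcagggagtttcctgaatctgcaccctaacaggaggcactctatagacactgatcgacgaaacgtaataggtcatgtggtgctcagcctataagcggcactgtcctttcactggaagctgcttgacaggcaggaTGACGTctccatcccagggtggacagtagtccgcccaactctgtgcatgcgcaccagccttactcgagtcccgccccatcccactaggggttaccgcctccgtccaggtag

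In these windows TGTTTTG began 174 bases before the start of G6pc, TGTTTTG on the opposite strand and TATTTTG lay 108 and 97 bases before that of Igfbp1, and ACGTCA lay 91 bases before that of Pck1 and, on the opposite strand, 61 bases before that of Slc37a4. Over all 12 windows of the 9 genes, 7 held a match, and those of Fbp1, Pcx and Foxo1 held none. TGTTTTG was also in Irs2 (37 bases before the start) and at 2 places in Irs1 (111 and 32 bases before). Slc37a4 has windows 1, 2 and 3, and window 1 is printed. Window 2 overlaps window 1 and holds the same match, counted again, 214 bases before its own start. Window 3 holds none. The forkhead core TGTTTAC was in none of the 12. Of all 32851 promoter windows of the same length, TGTTTTG was in 6.28%, TATTTTG in 4.36%, ACGTCA in 7.51% and TGTTTAC in 3.65%, and the motifs were chosen with the sequences of these promoters in view, so that the matches are a description.

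Libraries held between 17095433 and 28780140 read pairs counted on genes, which were 56.3% to 69.1% of each library's tallied read pairs, the lowest share being that of AAV8-AGXT mouse 308. Levels are given as CPM, a gene's count relative to the size of its library after TMM scaling. Differences are log2 fold changes of AAV8-AGXT over AAV8-GFP from edgeR, tested with the quasi-likelihood method and adjusted after Benjamini and Hochberg across the 15248 genes tested, where an adjusted p under 0.05 counts as called. The mouse gene Agxt, which checks the labels only as far as human AGXT reads map to it, had a mean of 164 ± 15.8 CPM in the control group and 305 ± 98.3 CPM with AAV8-AGXT (SD, n = 4 each), with no overlap between the groups and an edgeR adjusted p of 0.0489. In whole liver, fewer cells of a type and less RNA per cell cannot be told apart.

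Of the 9 genes, 7 had a higher mean and 2 a lower mean in AAV8-AGXT livers, where 52.3% of all genes tested had a higher mean. By edgeR 1, Slc37a4, was called higher and none lower. Among all genes tested 2.45% were called higher and 1.9% lower, so 1 call among 9 genes is a small count to set beside that background. At an unadjusted p under 0.05 stood 6 of the 9, against 26.2% of all genes tested. By the DESeq2 Wald test 3 were called higher, Slc37a4, Fbp1 and Pcx. DESeq2 also called more genes over all, 1068 higher and 1033 lower of 28338 genes with any count. The groups did not overlap for 3 genes, all higher in AAV8-AGXT (Slc37a4, Fbp1 and Pcx), where 8.93% of all genes tested were separated in that direction and 7.63% in the other. The median log2 fold change of the 9 was 0.48, and that of all genes tested was 0.018.

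**Figure D1:**
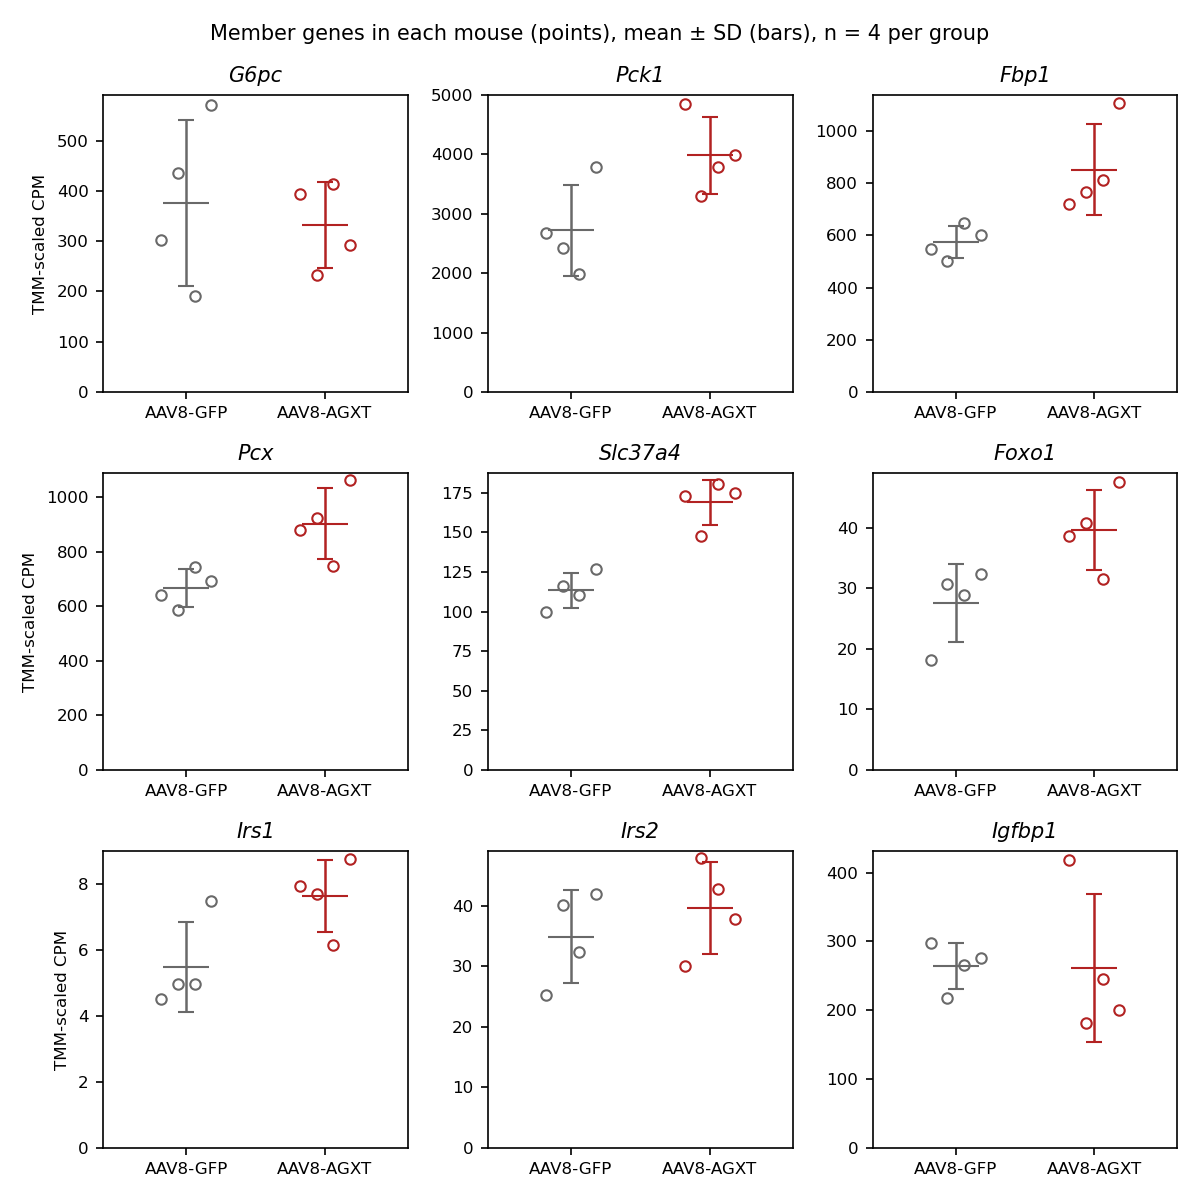
TMM-scaled CPM of the 9 genes in each mouse, 1 panel per gene with its own axis from 0, AAV8-GFP in grey and AAV8-AGXT in red, with bars for the mean ± SD of 4 mice. Slc37a4, Fbp1 and Pcx are the 3 genes whose groups do not overlap, although for Pcx the highest AAV8-GFP mouse (745 CPM) and the lowest AAV8-AGXT mouse (747 CPM) are side by side.

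Slc37a4 (ENSMUSG00000032114, GRCm38 chr9:44396852-44402968, plus strand), the transporter that brings glucose 6-phosphate to its phosphatase, rose in AAV8-AGXT livers. It stood at 100.0, 116, 110.2 and 127 CPM in AAV8-GFP mice 303, 311, 314 and 315, and at 173, 148, 181 and 175 CPM in AAV8-AGXT mice 308, 309, 316 and 319. The lowest AAV8-AGXT mouse, 309, lay above the highest AAV8-GFP mouse, 315. The means of 113 ± 11.2 and 169 ± 14.4 CPM (SD, n = 4 each) correspond to a 1.49-fold difference, or a log2 fold change of 0.58 with an SE of 0.11 and an edgeR adjusted p of 0.0349. The call was lost when any of 6 mice was left out, with edgeR adjusted p of 0.0671 without 303, 0.126 without 311, 0.0950 without 314, 0.0648 without 308, 0.0555 without 316 and 0.0885 without 319, while the log2 fold change stayed between 0.52 and 0.64. Scaled to total counts it was 0.34 with an adjusted p of 0.0795.

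G6pc (ENSMUSG00000078650, chr11:101367561-101377903, plus strand), whose product works directly after the transporter, was not called. Its levels were 302, 437, 192 and 572 CPM in AAV8-GFP mice 303, 311, 314 and 315, and 394, 232, 414 and 292 CPM in AAV8-AGXT mice 308, 309, 316 and 319. The AAV8-AGXT mice all lay within the range of the AAV8-GFP mice. The means were 376 ± 165 and 333 ± 85.7 CPM (SD, n = 4 each), with a log2 fold change of -0.17 and a 95% interval from -0.87 to 0.52 (edgeR adjusted p = 0.763). Whether its difference departed from that of Slc37a4 was not tested. Among the 9 genes G6pc had the widest spread in the control group, with a coefficient of variation of 43.9%, and without mouse 315, the highest, its log2 fold change was 0.11.

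Pck1 (ENSMUSG00000027513, chr2:173153048-173159273, plus strand), the cytosolic enzyme that makes phosphoenolpyruvate, was the most abundant of the 9. AAV8-GFP mice 303, 311, 314 and 315 had 2671, 2430, 1983 and 3796 CPM, and AAV8-AGXT mice 308, 309, 316 and 319 had 4855, 3300.2, 3788 and 3985 CPM. Mouse 315 reached the AAV8-AGXT range, lying above 309 and 316, and the other 3 controls lay below every AAV8-AGXT mouse. The means were 2720 ± 772 and 3982 ± 649 CPM (SD, n = 4 each), with a log2 fold change of 0.55, an SE of 0.22 and an edgeR adjusted p of 0.145. The log2 fold change was 0.76 without 315 (adjusted p = 0.0635) and 0.31 when scaled to total counts, and Pck1 was called under none of the 16 alternatives.

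Fbp1 (ENSMUSG00000069805, chr13:62864753-62888282, minus strand) encodes the bisphosphatase that removes a phosphate from fructose 1,6-bisphosphate. It was at 550, 504, 647 and 602 CPM in AAV8-GFP mice 303, 311, 314 and 315 and at 719, 768, 812 and 1108 CPM in AAV8-AGXT mice 308, 309, 316 and 319. The groups did not overlap, and mouse 319 stood above the other AAV8-AGXT mice. The means were 575 ± 62.2 and 852 ± 175 CPM (SD, n = 4 each), and this log2 fold change of 0.57 with an SE of 0.16 did not pass the test (edgeR adjusted p = 0.0740), whereas DESeq2 gave an adjusted p of 0.0133.

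Pcx (ENSMUSG00000024892, chr19:4510472-4621752, plus strand), the mitochondrial carboxylase at the entry from pyruvate, had 642, 585, 745 and 692 CPM in AAV8-GFP mice 303, 311, 314 and 315 and 878, 922, 747 and 1064 CPM in AAV8-AGXT mice 308, 309, 316 and 319. The groups were separated by a narrow gap, between control mouse 314 and AAV8-AGXT mouse 316. The means of 666 ± 68.8 and 903 ± 131 CPM (SD, n = 4 each) gave a log2 fold change of 0.44 with an SE of 0.15 (edgeR adjusted p = 0.0990), and DESeq2 gave an adjusted p of 0.0270.

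Foxo1 mRNA (ENSMUSG00000044167, chr3:52268336-52353221, plus strand), the transcript of the factor that insulin restrains, was 18.2, 30.6, 29.0 and 32.4 CPM in AAV8-GFP mice 303, 311, 314 and 315. It was 38.7, 40.8, 31.5 and 47.6 CPM in AAV8-AGXT mice 308, 309, 316 and 319. The groups overlapped by mice 315 and 316 alone, and control mouse 303 was low. The log2 fold change was 0.53 with an SE of 0.19 (means 27.5 ± 6.40 and 39.6 ± 6.60 CPM, SD, n = 4 each, edgeR adjusted p = 0.117). Of its exon bases, 7.78% are shared with Gm20402 on the other strand, and because the sources used here do not state whether the counting used strand, reads from the pair cannot be told apart.

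Irs1 and Irs2 encode the docking proteins that pass the insulin signal on, and Irs2 is itself a FOXO1 target. Irs1 (ENSMUSG00000055980, chr1:82233101-82291416, minus strand) was the scarcest of the 9, with 108 to 186 counts per mouse, at 4.53, 4.96, 4.98 and 7.50 CPM in AAV8-GFP mice 303, 311, 314 and 315 and 7.94, 7.69, 6.16 and 8.78 CPM in AAV8-AGXT mice 308, 309, 316 and 319. Mouse 315 stood apart from the other controls and inside the AAV8-AGXT range. The means of 5.49 ± 1.35 and 7.64 ± 1.09 CPM (SD, n = 4 each) gave a log2 fold change of 0.48 with an SE of 0.20 and an edgeR adjusted p of 0.163.

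Irs2 (ENSMUSG00000038894, chr8:10984681-11008458, minus strand) was at 25.2, 40.2, 32.3 and 41.9 CPM in AAV8-GFP mice 303, 311, 314 and 315 and at 30.1, 47.9, 42.7 and 37.8 CPM in AAV8-AGXT mice 308, 309, 316 and 319. The groups overlapped broadly, and the log2 fold change was 0.18 with a 95% interval from -0.23 to 0.60 (edgeR adjusted p = 0.563). Its direction turned when libraries were scaled to total counts (-0.036). Exons of Irs1 and Irs2 share 30.9% and 2.56% of their bases with Gm9747 and 9530052E02Rik on the opposite strand, which leaves the counts of Irs1 in particular uncertain.

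Igfbp1 (ENSMUSG00000020429, chr11:7197782-7202546, plus strand), a hepatocyte gene that insulin represses through the response units shown above, had nearly equal means of 264 ± 33.7 and 261 ± 108 CPM (SD, n = 4 each). The AAV8-GFP mice 303, 311, 314 and 315 had 298, 218, 265 and 276 CPM, and the AAV8-AGXT mice 308, 309, 316 and 319 had 418, 181, 245 and 201 CPM. Mouse 308 was above every control and mice 309 and 319 were below every control, so that the AAV8-AGXT group enclosed the control group. The log2 fold change was -0.016 with a 95% interval from -0.57 to 0.53 (edgeR adjusted p = 0.977), and without mouse 308 it was -0.35 (adjusted p = 0.225). Mouse 308 is also the library with the lowest share of read pairs on genes, and the part of that share in its Igfbp1 level was not tested.

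**Figure D2:**
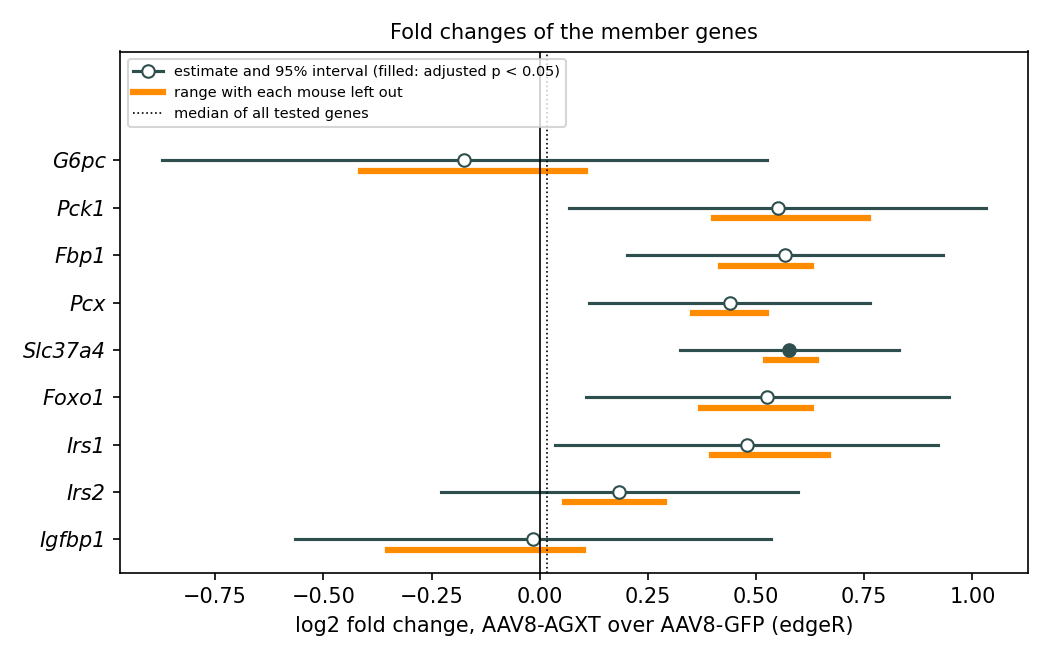
Log2 fold change of AAV8-AGXT over AAV8-GFP for the 9 genes (horizontal axis), with the edgeR estimate as a point, filled where the adjusted p is under 0.05, its 95% interval as a thin line and the range with each mouse left out as a thick line. Slc37a4 is filled and has the narrowest interval (0.32 to 0.83), and the intervals of G6pc, Irs2 and Igfbp1 include 0.

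Divided by exon length, the 9 levels kept the same top and bottom in both groups. In AAV8-GFP livers Pck1 led with 793 CPM per kb, followed by Fbp1 with 338, Igfbp1 with 173, G6pc with 156, Pcx with 140.1, Slc37a4 with 39.7, Irs2 with 5.52, Foxo1 with 3.18 and Irs1 with 0.601. Igfbp1, G6pc and Pcx overlapped across mice, and no other neighbours in this order did. In AAV8-AGXT livers the CPM per kb were 1161 for Pck1, 501 for Fbp1, 189.9 for Pcx, 171 for Igfbp1, 138 for G6pc, 59.2 for Slc37a4, 6.27 for Irs2, 4.57 for Foxo1 and 0.836 for Irs1. Here Pcx, Igfbp1 and G6pc again overlapped, as did Irs2 and Foxo1.

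Within the control group the genes did not share 1 order of mice. Mouse 315 was the highest control for 6 of the 9 (G6pc, Pck1, Slc37a4, Foxo1, Irs1 and Irs2) and mouse 303 the lowest for 4 (Slc37a4, Foxo1, Irs1 and Irs2), whereas Fbp1 and Pcx were both highest in 314 and lowest in 311. In the AAV8-AGXT group mouse 319 was highest for 4 (Fbp1, Pcx, Foxo1 and Irs1) and mouse 309 lowest for 4 (G6pc, Pck1, Slc37a4 and Igfbp1).

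Several of these genes have a counterpart with a different place in the pathway, and the pairs were compared within each mouse. Pck2, the mitochondrial PEP carboxykinase, moved opposite to the sign of Pck1. It was at 14.8, 15.9, 13.9 and 10.2 CPM in AAV8-GFP mice 303, 311, 314 and 315 and at 6.14, 7.81, 10.2 and 7.69 CPM in AAV8-AGXT mice 308, 309, 316 and 319. Control mouse 315 and AAV8-AGXT mouse 316 were level to within rounding, and all others were apart. Pck2 fell, with a log2 fold change of -0.78 and an SE of 0.19 (means 13.7 ± 2.46 and 7.97 ± 1.68 CPM, SD, n = 4 each, edgeR adjusted p = 0.0492), and this call near the threshold was made in 6 of the 16 alternatives, with adjusted p up to 0.169.

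The log2 ratio of Pck1 to Pck2 CPM was 7.49, 7.25, 7.14 and 8.52 in AAV8-GFP mice 303, 311, 314 and 315 and 9.60, 8.71, 8.52 and 9.0 in AAV8-AGXT mice 308, 309, 316 and 319. Only control mouse 315 reached the AAV8-AGXT values. The means differed by 1.36 (7.60 ± 0.63 and 8.96 ± 0.47, SD, n = 4 each), with p = 0.0571 in a two-sided exact permutation test and 0.129 after Benjamini-Hochberg adjustment over the 3 ratios tested. With 4 mice against 4 the smallest p this test can give is 0.0286.

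The log2 ratio of Irs2 to Irs1 was 2.65 ± 0.25 in AAV8-GFP and 2.35 ± 0.41 in AAV8-AGXT (SD, n = 4 each). The groups overlapped, and the difference of -0.30 did not pass the test (exact permutation p = 0.257). Other partners did not pass the test either. The insulin receptor Insr had a log2 fold change of 0.37 (adjusted p = 0.0796, no overlap of the groups), the coactivator Ppargc1a 0.52 (adjusted p = 0.107, no overlap), Foxo3 0.27 (adjusted p = 0.318) and G6pc3, the glucose 6-phosphatase found in most tissues, -0.22 (adjusted p = 0.369), all by edgeR.

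**Figure D3:**
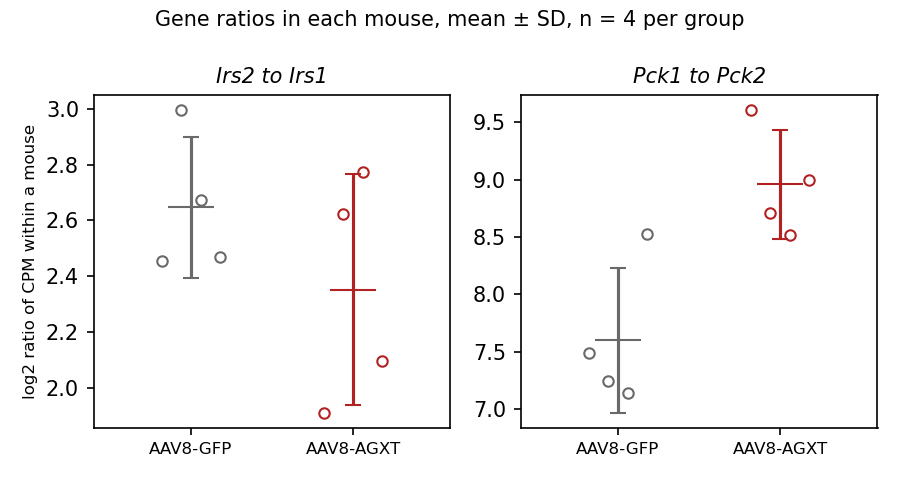
Log2 ratios of CPM of Irs2 to Irs1 and of Pck1 to Pck2 in each mouse (points), with the mean ± SD of 4 mice per group, AAV8-GFP in grey and AAV8-AGXT in red, on vertical axes that do not start at 0. The Pck1 to Pck2 ratio is higher in AAV8-AGXT mice except for control mouse 315, which is level with the lowest of them at 8.52.

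The genes around the 9 were read from lists, of which 25 genes of 258 tested were called over all. Without mouse 311, 314 or 319 edgeR called none of the 258 (78, 88 and 98 had an unadjusted p under 0.05). No edgeR call of a listed gene was therefore kept when any 1 of those mice was left out, and the cause was not tested. Of the 18 genes listed for the gluconeogenic route, 1 was called higher (Slc37a4) and 1 lower (Pck2). A higher mean in AAV8-AGXT was found for 10 of the 18, against 52.3% of all genes tested. The median log2 fold change of the 18 was 0.17, beside 0.018 for all genes tested. Steps shared with glycolysis lay on both sides, with log2 fold changes of 0.64 for phosphoglycerate kinase Pgk1 (adjusted p = 0.0677), -0.31 for the isomerase Gpi1 (adjusted p = 0.108) and -0.22 for Gapdh (adjusted p = 0.767), none past the edgeR test.

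Genes that bring carbon into the route included 2 called higher and none lower of 17, with a median log2 fold change of 0.39 and 14 higher means. Aqp9, the channel through which hepatocytes take up glycerol, rose by a log2 fold change of 0.58 (edgeR adjusted p = 0.0348), with means of 398 ± 17.1 and 595 ± 44.4 CPM (SD, n = 4 each). Got1, the cytosolic aspartate aminotransferase, rose by 1.13 on the same scale (edgeR adjusted p = 0.0374), with means of 94.2 ± 12.6 and 206 ± 81.3 CPM (SD, n = 4 each), and mouse 316 stood at 327 CPM against 152 to 175 CPM in the other AAV8-AGXT mice.

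Of 25 regulators listed for the transcription of gluconeogenic genes 24 were tested, and 2 were called higher and none lower, with a median of 0.33. Cebpa, a liver-enriched bZIP factor, rose with a log2 fold change of 0.50 (edgeR adjusted p = 0.0429), and Creb3l3, a membrane-bound factor of the fasted liver, rose with 0.70 (edgeR adjusted p = 0.0486). Hnf4a, the nuclear receptor that defines hepatocytes, had a log2 fold change of 0.46 (adjusted p = 0.0765).

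Of 24 established FOXO1 targets listed, 2 were called higher and none lower, 7 had an unadjusted p under 0.05, DESeq2 called 4 higher, and the median was 0.16. The called genes were Pnpla2, the lipase ATGL, from 143 ± 26.3 to 226 ± 33.1 CPM (log2 fold change 0.66, edgeR adjusted p = 0.0484), and Mttp, which loads lipid onto apolipoprotein B, from 221 ± 22.3 to 330 ± 51.3 CPM (log2 fold change 0.58, edgeR adjusted p = 0.0495, SD, n = 4 each). Mttp shares exon bases with Trmt10a and Gm43691. Other named genes that share exon bases include Cebpa (with Gm45091), Cry2 (D930015M05Rik), Slc1a2 (Gm13872), Pgm1 (Itgb3bp), Spp1 (Gm42793) and Serpina1c (B430119L08Rik).

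None of the 27 insulin signalling genes was called by edgeR (6 had an unadjusted p under 0.05, and DESeq2 called 1 higher and 1 lower), and their median of 0.055 lay near that of all genes. The adapter Grb10, an inhibitor of the receptor, had the smallest p, with a log2 fold change of -0.85 (adjusted p = 0.0597). None of the 12 insulin-induced genes was called by edgeR either (4 had an unadjusted p under 0.05, and DESeq2 called 4 lower), with a median of -0.15 and 8 of 12 lower means, among them the fatty acid synthesis enzymes Acaca at -0.35 (adjusted p = 0.0673) and Fasn at -0.59 (adjusted p = 0.0732). The genes that DESeq2 called in these lists included Insr, Grb10, Acaca and Fasn.

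In the glucagon and cAMP arm, which opposes insulin, 1 of 19 was called higher and 1 lower, with a median of 0.015. Adcy9, an adenylyl cyclase that makes cAMP, rose with a log2 fold change of 0.82 (edgeR adjusted p = 0.0349), and Pde4a, a phosphodiesterase that breaks it down, fell with -0.82 (edgeR adjusted p = 0.0312). Among 12 glucocorticoid-responsive genes 2 were called higher and 1 lower, with a median of 0.22. Fkbp5, which binds the receptor's chaperone, rose with 1.37 (edgeR adjusted p = 0.0283) and the feedback inhibitor Errfi1 with 0.61 (edgeR adjusted p = 0.0375), while Cdkn1a, which p53 also induces, fell with -0.95 (edgeR adjusted p = 0.0349).

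**Figure D4:**
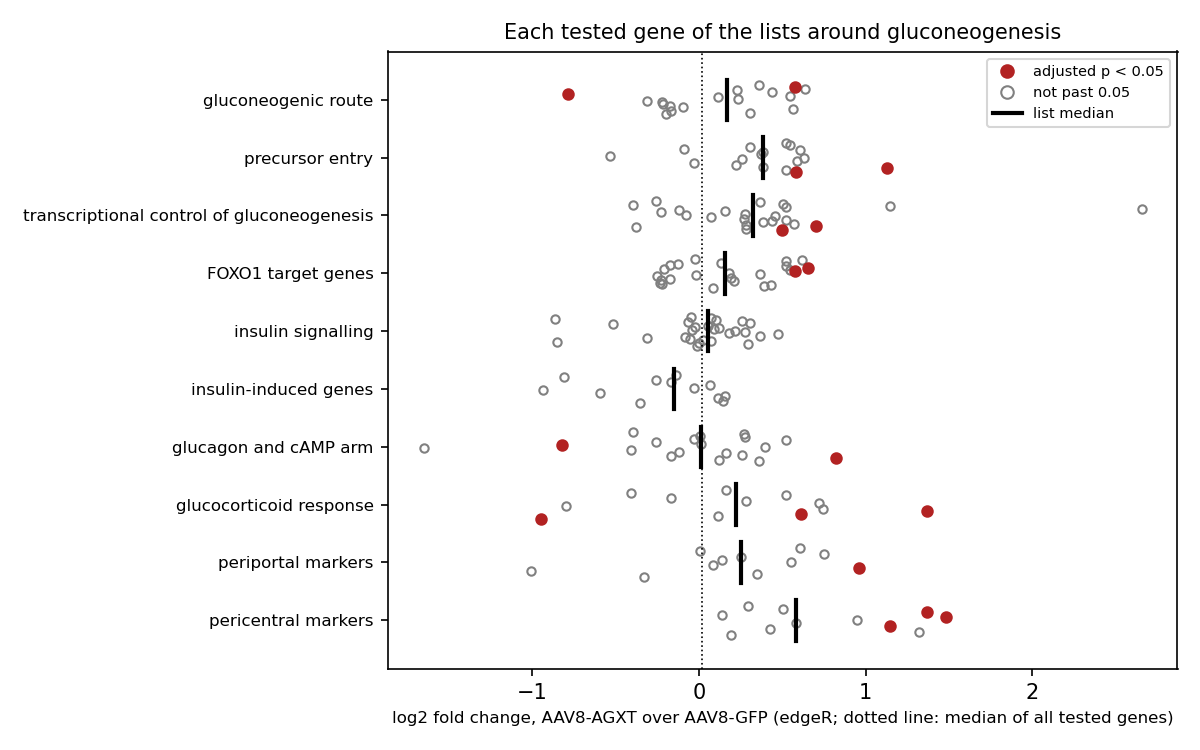
Log2 fold change of AAV8-AGXT over AAV8-GFP (horizontal axis) for each tested gene of 10 lists, 1 row per list, with called genes in filled red, the others as open circles, the list median as a black bar and the median of all genes as a dotted line. The list medians run from -0.15 for insulin-induced genes to 0.58 for pericentral markers.

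Igfbp1 belongs to a family of carriers, and of 8 genes listed with it 7 were tested, 1 was called higher and the median was 0.28. Igfals, the subunit that holds the circulating complex together, rose by a log2 fold change of 0.75 (edgeR adjusted p = 0.0374), with means of 46.8 ± 5.66 and 78.7 ± 16.5 CPM (SD, n = 4 each), and Igfbp4 had a log2 fold change of 0.53 (adjusted p = 0.0537). On the side of storage, glycogen synthase Gys2 rose with 0.93 (edgeR adjusted p = 0.0413), the 1 gene called of 14 for glycogen turnover, and Pgm1, which links glycogen to glucose 6-phosphate, had 0.53 (adjusted p = 0.0578). Of 10 fasting markers, 2 were called higher, the fatty acid hydroxylase Cyp4a14 with 2.24 (adjusted p = 0.0335) and the carnitine palmitoyltransferase Cpt1a with 0.73 (adjusted p = 0.0374), both by edgeR, and the median was 0.022. Clock genes, whose products set the daily rhythm of Pck1 and G6pc, included 2 called higher of 12, with a median of 0.53. The 2 were Ciart with 2.73 (edgeR adjusted p = 0.0349) and Cry2 with 0.84 (edgeR adjusted p = 0.0495). The 12 lay on both sides, with 9 higher means. The groups did not overlap for 4 higher and 3 lower clock genes, and DESeq2 called 5 higher and 3 lower. The hour of tissue collection for each mouse is not given in the sources used here, and its part in the levels of these genes was not tested.

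Markers of zones and cell types were read beside these values. The 8 hepatocyte markers analysed here were all present, none was called by edgeR (3 had an unadjusted p under 0.05, and DESeq2 called 1 higher), and their summed level was 58619 to 71366 CPM in the control mice and 67685 to 91106 CPM with AAV8-AGXT. Gluconeogenesis is strongest in periportal hepatocytes. Of 11 periportal markers 1 was called higher, Cps1 (0.96, edgeR adjusted p = 0.0279), and 9 had a higher mean, with a median of 0.25. Their summed levels were 2733 to 4146 CPM in the control mice and 4173 to 4810 CPM with AAV8-AGXT. Cdh1 was among the lower ones, at -1.0 (edgeR adjusted p = 0.126). Of 11 pericentral markers 3 were called higher, Cyp2e1 (1.15), Oat (1.48) and Slc1a2 (1.37), and all 11 had a higher mean. Their summed levels were 9026 to 10899 CPM in the control mice and 17262 to 22564 CPM with AAV8-AGXT. Most of this sum was Cyp2e1, with means of 5450 and 12061 CPM beside summed means of 9654 and 19324 CPM. The part of zonation in the levels of the 9 genes was not tested.

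Cells other than hepatocytes had lower summed markers in most lists. Stellate cell and fibroblast markers summed to 559 to 982 CPM in the control mice and 258 to 642 CPM with AAV8-AGXT, with 1 of 9 called lower (Acta2, -0.99, edgeR adjusted p = 0.0427). Cholangiocyte markers summed to 228 to 684 and 75.2 to 277 CPM, with a median of -1.34. Most of this sum was Spp1, with means of 484 and 157 CPM beside summed means of 541 and 182 CPM. Macrophage markers summed to 642 to 1112 and 280 to 1099 CPM, with a median of -0.57, and lymphocyte and neutrophil markers to 18.3 to 30.7 and 7.87 to 17.4 CPM, with a median of -0.79. Endothelial markers summed to 220 to 342 and 206 to 392 CPM, with a median of 0.18. In these 4 lists edgeR called none of 7, 12, 9 and 8 genes tested, while 6, 5, 2 and 0 had an unadjusted p under 0.05 and DESeq2 called 5 cholangiocyte, 3 macrophage and 2 lymphocyte or neutrophil markers lower and 1 macrophage marker higher. No count of the kidney gene Nphs1 and at most 4 counts of Umod or Slc34a1 were found in any mouse. Of 11 adipose, kidney and pancreas markers only Cfd, the adipocyte protease adipsin, was tested, and it rose with 1.93 (edgeR adjusted p = 0.0487), beside 0 to 2 counts of Adipoq per mouse. The part of these cell types in the values of the 9 genes was not tested.

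For each of the 9 genes the 2 tested genes with the most similar profile were taken, by the root mean square difference of log2 CPM over the 8 mice after subtraction of each gene's mean. For Slc37a4 they were Gch1 (0.089), which starts tetrahydrobiopterin synthesis, and Shpk (0.095), the sedoheptulose kinase. Gch1 and Shpk had log2 fold changes of 0.42 and 0.43 and were called higher. Both were picked for their likeness to Slc37a4 over the same mice, so their calls add nothing to that of Slc37a4. For Pck1 they were Slc18a1 (0.084) and Bmp7 (0.11), for Fbp1 Ankrd28 (0.086) and Ppp1ccb (0.096), for Pcx Eif4g1 (0.072) and Srpr (0.073), and for Foxo1 Hspb8 (0.11) and Serpind1 (0.11). For Irs1 they were Gphn (0.072) and Gm2115 (0.089), for Irs2 Tbccd1 (0.14) and Thap2 (0.14), and for Igfbp1 Gm11451 (0.14) and Gm43655 (0.14). For G6pc they were 2310026L22Rik (0.22) and Hist1h2bf (0.22), the widest differences of the 9. The spread of G6pc itself over the 8 mice was 0.48, beside 0.40 for Pck1, 0.39 for Foxo1, 0.35 for Igfbp1 and 0.34 for Irs1. It was 0.34 for Fbp1, 0.31 for Slc37a4, 0.29 for Irs2 and 0.27 for Pcx. The differences did not follow this order, as Pck1 and Foxo1 had wider spreads but closer neighbours than Igfbp1 and Irs2. A gene with a wider spread can lie further from its neighbours, so these differences do not rank how well the genes were matched.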

How the data were processed

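Liver mRNA of 8 mice, 4 per group by the treatment in the labels, was sequenced as stranded paired-end libraries of 76-base reads. The authors checked reads with FastQC 0.11.8, used Trimmomatic 0.35 for trimming, aligned to GRCm38 by HISAT2 2.1.0.13 and counted read pairs on Ensembl genes with HTSeq. The deposited values are raw counts without normalization, and the strand option is not given in the sources used here. Tallies of uncounted pairs were kept out of library sizes. Of 52636 genes, 52489 matched the annotation of GENCODE M21 by identifier.

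Genes were tested in R 4.3.3 with edgeR 4.0.16 (filterByExpr, TMM, quasi-likelihood test with treatment as the only term, Benjamini-Hochberg adjustment over 15248 genes, threshold 0.05). The common biological coefficient of variation was 23.3%, so that spread between mice and not counting error set the precision. The authors used DESeq2, which is an alternative here (1.42.0), beside limma-voom (3.58.1), robust estimation, other scalings, other filters and each mouse left out, 16 in all. The DESeq2 calls given here come from a new run and differ in number from those the authors published. Ratios used log2 CPM with a prior count of 2. Pairs of mice of a group correlated at 0.959 to 0.983 and none was a duplicate.

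The 9 genes, the 21 lists and the tests were chosen with earlier results of these data known. Named were the 9 genes, fixed partners, per list up to 4 called genes with the smallest p (with fewer than 2 called, the 2 smallest p), the 2 nearest profiles, and Pgk1, Gpi1, Gapdh and Hnf4a, chosen after their values were seen. The list rule also picked marker genes given no value above, none of them called by edgeR. Their log2 fold changes were 0.77 (Serpina1c), 0.37 (Apob), -1.77 (Col1a1), 0.60 (Kdr), 0.25 (Cdh5), -0.91 (Sox9), -2.06 (Cd8a) and -0.93 (Cd3g). The promoter motifs were also chosen after the values were seen. One listed hepatocyte marker was not analysed here, and one fixed partner with its ratio is not reported here.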

Additional observations from a re-analysis of the deposited data

Results flagged for a closer look

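Among the genes named here, 118 groups of 4 mice were checked for a mouse far from the other 3 (a gap to the nearest mouse past Dixon's 95% critical share of the group's range), and 5 were found, where chance gives about 1 in 20. Irs1 was at 7.50 CPM in AAV8-GFP mouse 315 and at 4.53 to 4.98 CPM in the other controls. Got1 was at 327 CPM in AAV8-AGXT mouse 316 and at 152 to 175 CPM in the others of its group. Oat was at 1079 CPM in AAV8-GFP mouse 303 and at 698 to 724 CPM in the other controls. The macrophage markers Timd4 and Marco were high in AAV8-AGXT mouse 319, Timd4 at 13.6 CPM against 1.34 to 3.04 CPM and Marco at 156 CPM against 5.94 to 12.4 CPM.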

How the results depend on the processing

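The count of all called genes (664, of which 374 higher and 290 lower) was 2101 by DESeq2 and 1001 with total-count scaling, and 2 to 643 with each mouse left out (2 without 311, 14 without 319, 15 without 314, 177 without 308, 193 without 303 and 411 without 316). Higher calls were 56.3% of the 664, 46.0% with upper-quartile scaling and 14.4% with total counts, which shifted the median log2 fold change of all genes by -0.24. Relative to that median, Slc37a4 was at 0.56 with either scaling and the median of the 9 genes at 0.46. Of the 9 genes, 3 were called by DESeq2, 0 with total counts (edgeR, 1 at an unadjusted p under 0.05) and 0 to 1 with each mouse left out (4 to 6 at an unadjusted p under 0.05). Slc37a4 was called in 9 of 16 alternatives. Signs turned for G6pc (-0.41 to 0.11 with each mouse left out, higher without 315), Irs2 (-0.036 with total counts) and Igfbp1 (-0.35 to 0.10 with each mouse left out, 0.048 without 303, 0.00857 without 315, 0.0997 without 309, 0.018 without 316 and 0.095 without 319). Of 258 tested genes of the lists, 25 were called (21 higher and 4 lower), 76 by DESeq2, 41 without a filter on low counts, 25 with total counts (8 higher and 17 lower), and 0 to 25 with each mouse left out (0 without 311, 314 or 319, 8 without 303 and 10 without 308). The ratios of Pck1 to Pck2 and of Irs2 to Irs1 kept their sign under every alternative run, and after adjustment over the 3 ratios neither passed 0.05. Without 315 the Pck1 to Pck2 difference had an exact permutation p of 0.0286, the smallest that 3 mice against 4 can give, and 0.0857 after adjustment. The cause of these changes was not tested, and 4 mice per group limit what can be called. No paired analysis was possible because the groups share no replicate numbers.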
